A study of Rattus norvegicus with 7 samples.

Results

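The glutathione S-transferase genes Gsta4, Gsta5, Gstm1, Gstm2, Gstp1, Gstt1, Gsto1, Gstk1, Mgst1 and Mgst3 were followed in mesenchymal stem cells from rat (rMSCs) on 3 surfaces. They were taken by gene symbol, and all 10 were found among the 17147 symbols of every table. They are 10 of the 27 transferase symbols in the tables. The choice was made with values in view: Gsta5 was singled out because it is listed at 0 on tissue culture plastic (TCP) and lies above 19 FPKM in all 6 film libraries, so the contrast of TCP with the films is given below as a description, without a test.
The cells were primary bone marrow cells of a male Sprague-Dawley rat, 6 weeks of age according to the methods, grown in alpha MEM with serum. For sequencing, 20000 cells were seeded on films 16 mm in diameter of PCL (polycaprolactone) or ISB-P (the polyurethane copolymer of PCL with propoxylated isosorbide), or on TCP, and RNA was collected 4 h later. Both films had been sterilized with EO gas. The analysis covered 3 PCL libraries, 3 ISB-P libraries and 1 TCP library. The paper speaks of sequencing in triplicate (n = 3), also with TCP in the design, and whether the single TCP table stands for 1 library or for several combined is not given in the sources used here. It calls the film libraries triplicate experiments without saying whether cultures or animals were separate, so p-values measure only the spread between these libraries, which may be technical.

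Glutathione S-transferases join the tripeptide glutathione to reactive, electron-poor compounds such as epoxides, quinones and the aldehydes of oxidized lipids, and the conjugates are then pumped out of the cell. The soluble enzymes fall into classes named alpha (Gsta), mu (Gstm), pi (Gstp), theta (Gstt) and omega (Gsto), the kappa enzyme (Gstk) sits in mitochondria and peroxisomes, and the Mgst proteins are embedded in membranes. Many of the genes are known targets of NRF2, a transcription factor that binds the antioxidant response element, and pi is the most widespread class outside the liver.

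Values are FPKM, fragments scaled to transcript length and to library size, so that levels of different genes can be set side by side per length. They summed to between 539393 and 660124 per library. Between 4537 and 5105 symbols were listed at 0 in a library, and these zeros are not all absence of a transcript: of 73 ribosomal protein symbols, 4 (Rpl7a, Rpl8, Rps6 and Rps9) were listed at 0 in all 7 libraries, while none was at 0 on TCP and above 0 on a film. Zeros could still differ between libraries. Rps19 was 0.728 FPKM on TCP, 0 in PCL replicates 1 and 3 and ISB-P replicate 3, and above 0 in the other film libraries. The 7 mesenchymal markers in the tables summed to 2273 FPKM on TCP and to between 1900.1 and 2702 on the films. Of the 7, 3 were highest on TCP, among them Thy1, at 1210 against 925 to 1056. For the others the TCP value lay within the range of the film libraries. Itgb1 was 481 on TCP and 455 to 1164 on the films. Pdgfrb was 177 FPKM on TCP, 154 to 177 on PCL and 86.6 to 110 on ISB-P. The endothelial markers Pecam1, Cdh5, Kdr, Tek and Tie1 summed to 1.14 FPKM or less in every library. The TCP library also differed in markers of other cells. Its 8 macrophage and leukocyte markers summed to 140.2 FPKM, against 43.6 to 50.2 on PCL and 44.9 to 50.0 on ISB-P, and all 8 were highest on TCP, Lyz2 at 72.9 against 16.6 to 27.2 on the films. The 4 adipocyte markers summed to 75.9 FPKM on TCP and to 20.0 to 41.1 on the films. None of these 12 markers was at 0 in every library, and their part in the differences from TCP below was not tested. In bulk RNA, fewer cells of a type and less RNA per cell cannot be told apart.

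Gstp1, the pi class enzyme, was the most abundant of the 10 genes on every surface. It was 129.6 FPKM on TCP, 615, 714 and 628 in PCL replicates 1, 2 and 3, with 533, 623 and 525 in those of ISB-P. All 6 film libraries lay far above TCP, and the films overlapped each other. Adding 1 FPKM to each value, the PCL mean was 5.00-fold and the ISB-P mean 4.30-fold above TCP. Gstp1 made up 37.7% of the summed FPKM of the 10 genes on TCP, and between 72.1% and 78.6% in the film libraries. The sum itself was 343 FPKM on TCP, with 811 to 909.6 per PCL library and 712 to 793 per ISB-P library.

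**Figure D1:**
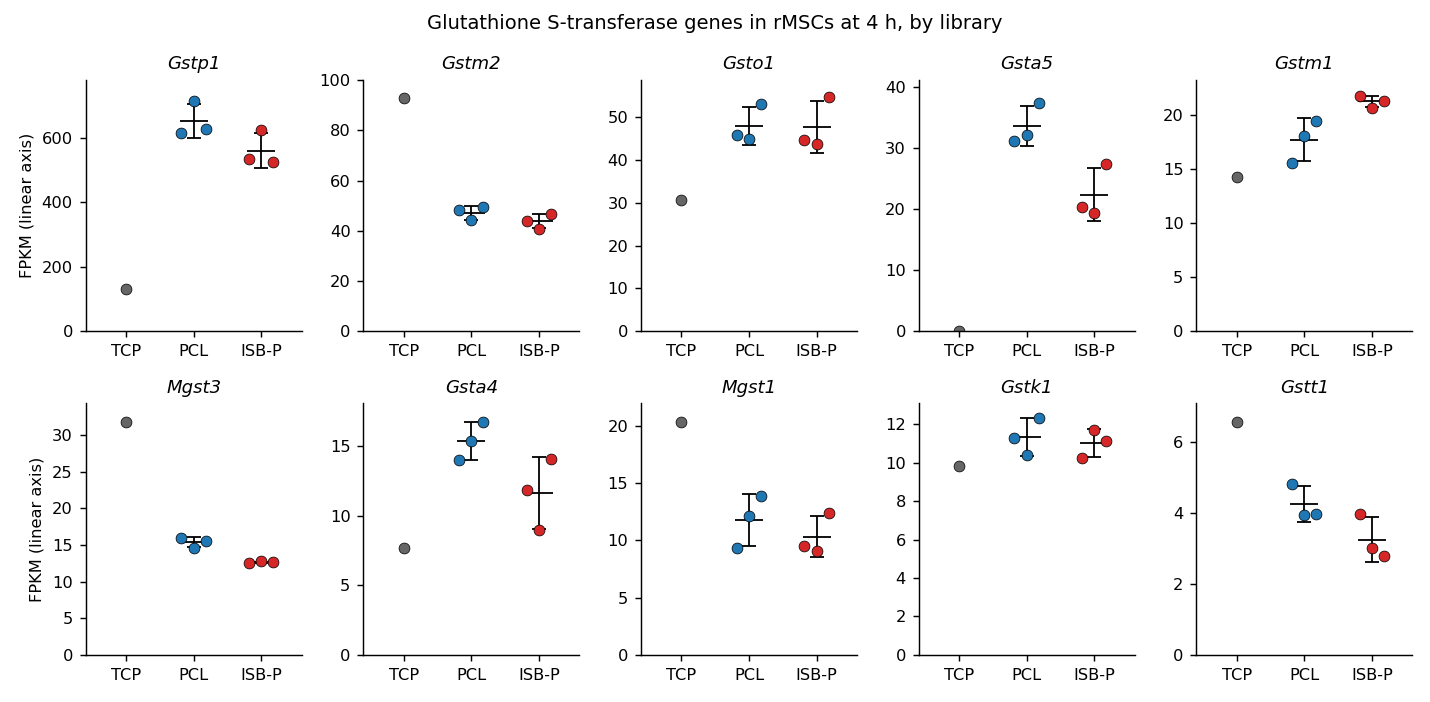
FPKM of the 10 transferase genes in each library on a linear axis, with the single TCP library in grey, PCL in blue and ISB-P in red. The bars mark the mean and SD of 3 libraries, and replicates 1 to 3 run from left to right. Gstp1 is at 129.6 FPKM on TCP and at 525 or more on the films, whereas Gstm2 and Mgst3 are highest on TCP.

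Of the 10 genes, 6 were higher in all 6 film libraries than on TCP and the other 4 were lower in all 6. Among the 9798 genes averaging 1 FPKM or more on any surface, 28.8% lay above TCP in all 6 film libraries and 27.2% below, and 55.9% lay on a single side. Both film means were over 2-fold above TCP for 4.92% of the genes and over 2-fold below for 2.67%. Gstp1 passed the first limit, Mgst3 narrowly the second (though not without PCL replicate 2), and Gsta5, at 0 on TCP, was given no ratio. With 1 TCP library these differences have no replicate check, and the surface cannot be told apart from anything else particular to that library.
The genes above TCP differed widely in size. Gsta4, the alpha class enzyme known for conjugating the lipid aldehyde 4-hydroxynonenal, was 7.65 FPKM on TCP, with 14.0, 15.3 and 16.7 in the PCL replicates 1, 2 and 3 and 11.9, 8.94 and 14.0 in those of ISB-P. Its PCL mean was 1.89-fold and its ISB-P mean 1.46-fold above TCP, and on ISB-P replicate 2 was close to the TCP value. Gsto1, an omega class enzyme that reduces dehydroascorbate, was 30.6 FPKM on TCP, rather below the 45.8, 44.9 and 53.0 of the PCL replicates and the 44.7, 43.6 and 54.7 of ISB-P. The PCL and ISB-P means of Gsto1 were 1.55-fold and 1.54-fold above TCP, with the film libraries interleaved. Gstm1, a mu class enzyme, was 14.2 FPKM on TCP, and its PCL replicates had 15.6, 18.1 and 19.5, its ISB-P replicates 21.8, 20.7 and 21.4. It was the only gene of the 10 whose ISB-P values all exceeded its PCL values, and its means lay 1.23-fold and 1.46-fold above TCP. Gstk1 was nearly level, with 9.85 FPKM on TCP against 11.3, 10.4 and 12.3 in the PCL libraries and 10.3, 11.7 and 11.1 in the ISB-P libraries, and when values were scaled to a common total its ISB-P mean fell to the other side of TCP.

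The 4 genes below TCP on the films were a mu class gene, a theta class gene and both membrane-bound members. Mgst3, a microsomal enzyme with glutathione peroxidase activity, was 31.7 FPKM on TCP, while the PCL replicates had 15.9, 14.6 and 15.6 and the ISB-P replicates 12.6, 12.8 and 12.6. TCP was 2.00-fold above the PCL mean and 2.40-fold above the ISB-P mean, and the films did not overlap. Gstm2 was 92.9 FPKM on TCP but 48.1, 44.1 and 49.5 in the PCL replicates and 44.1, 40.9 and 46.7 in those of ISB-P, with TCP 1.95-fold and 2.09-fold above the film means, and it passed the 2-fold limit on both films after each of the other scalings. Gstm2 and Gstm1 are neighbouring genes of the same class that lay on opposite sides of TCP, and the 8 mu class symbols together summed to 124 FPKM on TCP, and to 74.8 to 82.2 per PCL library and 77.6 to 84.3 per ISB-P library. Mgst1, which protects membranes of the endoplasmic reticulum and mitochondria, was 20.3 FPKM on TCP, and its film values, 9.34, 12.1 and 13.9 for PCL with 9.54, 9.09 and 12.4 for ISB-P, overlapped. TCP was 1.67-fold above PCL and 1.88-fold above ISB-P for this gene. Gstt1, a theta class enzyme that acts on small halogenated compounds, had the lowest level on both films, with 6.56 FPKM on TCP, 4.83, 3.94 and 3.99 in the PCL replicates and 3.96, 3.01 and 2.79 in those of ISB-P. TCP was above these means by 1.44-fold and 1.78-fold.

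**Figure D2:**
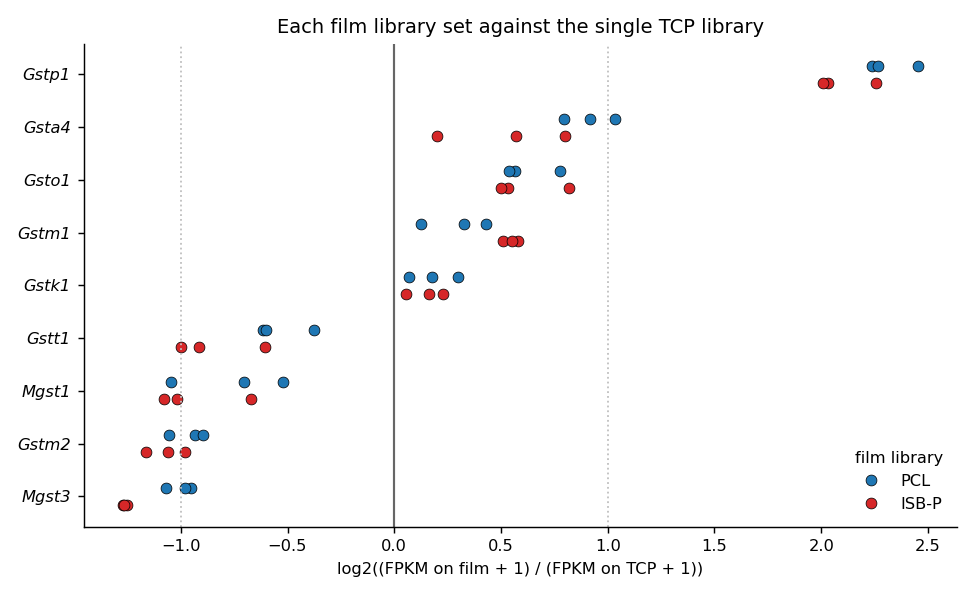
Log2 ratio of each film library to the single TCP library, after adding 1 FPKM to each value, for the 9 genes with a value above 0 on TCP (PCL blue, ISB-P red). The vertical line at 0 is TCP and the dotted lines mark 2-fold. Each gene keeps all 6 film libraries on a single side of TCP, from Gstp1 at the top to Mgst3 at the bottom.

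On the films the order of the mean levels began with Gstp1, Gsto1, Gstm2, Gsta5 and Gstm1 and continued with Mgst3 and Gsta4, the same on PCL and ISB-P. Gstk1 and Mgst1 followed in either order and Gstt1 came last. The libraries of Gsto1 and Gstm2 overlapped on both films, as did those of Mgst3 and Gsta4, and of Gstk1 and Mgst1, so these neighbours were not separated. Gstm1 and Mgst3 also overlapped on PCL, and on ISB-P Gsta5 overlapped Gstm1 and Gsta4 overlapped Gstk1. Gstp1 stood apart from Gsto1 on both films, and Gstm2 from Gsta5. On TCP the order was Gstp1, Gstm2, Mgst3, Gsto1 and Mgst1, with Gsta5 last. The coefficient of variation within a film ran from 0.714% for Mgst3 on ISB-P to 22.1% for Gsta4 on the same film.

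Promoter sequences were read from RefSeq for the GRCr8 build, which is a later build than the rn5 of the deposited values, and 8 of the 10 genes were matched. Gstt1 is not among them, and Gsta5 was left out because its symbol is ambiguous (below). The 150 bases before the start were searched on both strands for TGACNNNGC, the core of the antioxidant response element, for TGACTCA, the AP-1 site, and for GCGTG, the core bound by the aryl hydrocarbon receptor. The following are shown because Gstp1 and Gsta4 were above TCP on the films and Gstm2 and Mgst3 below it, with matches in capitals. They lie at chr1:210769706-210769855 (minus strand), chr8:87947115-87947264 (plus strand), chr2:198316918-198317067 (minus strand) and chr13:82080296-82080445 (minus strand).
Gstp1: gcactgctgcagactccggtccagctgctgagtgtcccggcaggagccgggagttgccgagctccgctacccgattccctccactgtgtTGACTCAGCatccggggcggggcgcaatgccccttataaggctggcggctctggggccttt
Gsta4: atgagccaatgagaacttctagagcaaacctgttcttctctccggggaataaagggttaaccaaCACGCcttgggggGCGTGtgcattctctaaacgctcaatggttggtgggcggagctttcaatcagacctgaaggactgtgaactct
Gstm2: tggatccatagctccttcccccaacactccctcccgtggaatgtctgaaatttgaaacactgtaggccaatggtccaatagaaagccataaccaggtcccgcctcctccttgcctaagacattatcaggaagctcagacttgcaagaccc
Mgst3: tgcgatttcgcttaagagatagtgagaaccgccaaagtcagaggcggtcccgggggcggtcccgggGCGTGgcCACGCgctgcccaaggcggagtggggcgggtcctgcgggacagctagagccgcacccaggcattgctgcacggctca
In Gstp1 the capitals mark a single stretch from -61 to -53, counted back from -1 at the base before the start, that matches both TGACNNNGC and TGACTCA, so these 2 matches overlap. It was the only match of either motif in the 8 promoters. TGACNNNGC was found in 6.58% and TGACTCA in 2.38% of all 33469 promoter windows of this length. Gsta4 and Mgst3 each held GCGTG once on either strand (printed as GCGTG and CACGC), as 18.8% of all windows did at least once, and the other 6 had none. Elements farther from the start were not searched, and a match in this window is a description of letters only.

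Gsta5 was listed at 0 on TCP, at 31.2, 32.3 and 37.4 FPKM in the PCL replicates 1, 2 and 3, and at 20.4, 19.4 and 27.4 in those of ISB-P. Every ISB-P library was below every PCL library. It had been singled out for being at 0 on TCP and above 19 FPKM in all 6 film libraries, so its passing was given. Among all 17147 symbols it was the only one that passed (0.00583%). It lies just inside that limit, with 19.4 FPKM in its lowest film library, and the closest symbol outside is also an alpha class transferase: Gsta2, at 0 on TCP and 6.86 to 15.7 FPKM on the films. The next, the histone gene symbol Hist1h2bl, reached only 0.877 FPKM in its lowest film library. Symbols at 0 on TCP and above 0 in all 6 film libraries numbered 75 (0.437%).
Which gene the symbol Gsta5 of the tables stands for is uncertain. RefSeq now gives the name Gsta5 to a single gene, but lists Gsta5 also as an older symbol of the genes now called Gsta3 and Gsta1. Of the 5 alpha class symbols in the tables, 4 are an older symbol of another gene in this way, and only Gsta4 is not. Alpha class genes are also similar in sequence, and how the authors' counting divided shared fragments is not given in the sources used here.
The class was therefore also summed. The 5 alpha class symbols gave 29.4 FPKM on TCP, while the PCL replicates gave 97.4, 106.7 and 124.5 and the ISB-P replicates 212, 229 and 299. The sum on TCP came from Gsta1 (21.8 FPKM) and Gsta4, with Gsta2, Gsta3 and Gsta5 all listed at 0. The PCL mean of the sum was 3.63-fold and the ISB-P mean 8.14-fold above TCP, after adding 1 FPKM. The composition differed between the films: Gsta5 held 30.1% to 32.1% of the sum on PCL and 8.45% to 9.61% on ISB-P, while Gsta1 held 43.8% to 45.2% and 81.3% to 83.7%. Without Gsta1, the other 4 symbols summed to 54.7 to 70.0 FPKM on PCL and to 38.6 to 48.8 on ISB-P.

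**Figure D3:**
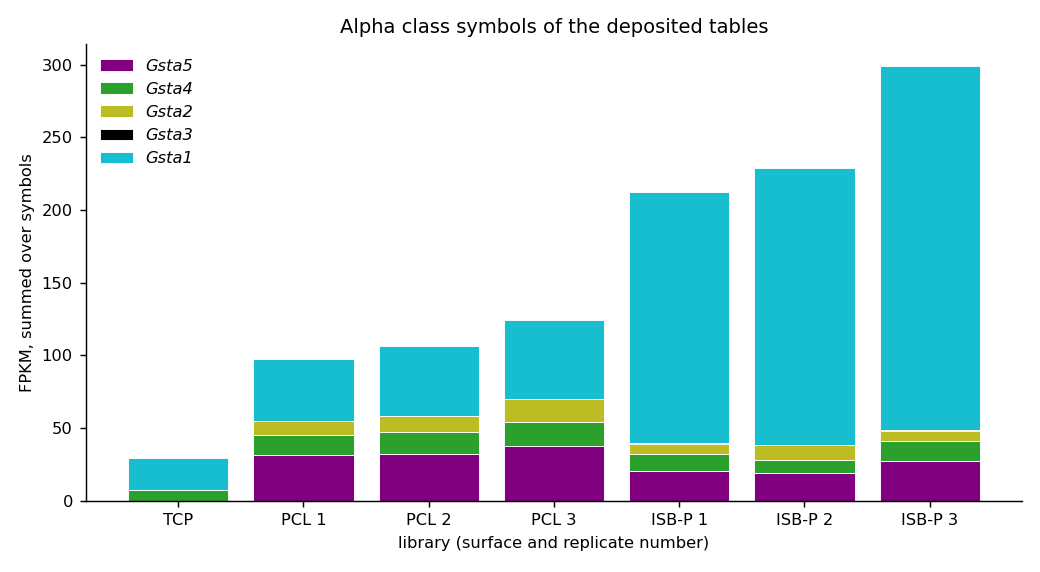
Stacked FPKM of the 5 alpha class symbols in each library, on a linear axis that starts at 0. Gsta5 is missing from the TCP bar and is larger on PCL (31.2 to 37.4 FPKM) than on ISB-P (19.4 to 27.4), while Gsta1 fills over 81% of each ISB-P bar and Gsta3, under 0.5 FPKM, is too thin to see.

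The comparison of ISB-P with PCL asks how the polyurethane film differed from the plain polymer. The genes were chosen with its results known. All 10 genes were among the 9467 that passed the filter on low values. At an adjusted p below 0.05 in limma on log2(FPKM + 1), 0 of the 10 changed. Of all tested genes, 1.72% were called, 1.10% higher and 0.623% lower on ISB-P (104 and 59 genes, or 70 and 70 after scaling to a common total). At an unadjusted p below 0.05 there was 1 of the 10, Gsta5, and 1145 of all tested genes. The log2 fold change was below 0 for 9 of the 10, and for 4462 of the 9467 tested genes. Among the 9 were Gsto1 and Gstk1, close to 0 at -0.01 and -0.04. The median was -0.19 for the 10, against 0.02 over all tested genes. The 9 tested transferases outside the 10 went the other way, with 8 above 0, 1 below and a median of 0.15. ISB-P was below PCL within all 3 replicate numbers for 6 of the 10 (27.7% of all tested genes) and above PCL within all 3 for Gstm1 alone (30.5%).
Same-numbered PCL and ISB-P libraries deviated together from their film means, though less so for number 2 (r = 0.431) than for numbers 1 and 3 (0.887 and 0.867). What libraries of the same number share is not given in the sources used here, so the pairing rests on these correlations. When the number was fitted as a block, 5 of the 10 genes fell on ISB-P and 0 rose. In that fit 24.4% of all tested genes were called, 11.4% lower and 13.0% higher. The 5 were Gsta5, Gsta4, Gstt1, Mgst3 and Gstp1. On log2(FPKM + 1) of the values as listed, all were changes of less than 1.5-fold, with Gsta5 the largest at 1.49-fold. Scaled to a common total, the log2 fold change of Gsta5 without the block was -0.69, against -0.58 as listed.
Gsta5 was 33.6 ± 3.32 FPKM (SD, n = 3) on PCL and 22.4 ± 4.36 (SD, n = 3) on ISB-P, and lower on ISB-P within each replicate number. Its log2 fold change of -0.58 had a standard error of 0.17 (adjusted p = 0.194 in limma), and with the block the standard error was 0.08 and the adjusted p = 0.00160. Gsta4 was 15.4 ± 1.36 FPKM on PCL and 11.6 ± 2.56 on ISB-P, with a log2 fold change of -0.39 (adjusted p = 0.474 in limma, 0.0309 with the block). Within replicates 1, 2 and 3 the log2 differences of Gsta4 were -0.22, -0.72 and -0.24, so replicate 2 gave the largest.
Mgst3 was steadier, at 15.4 ± 0.697 and 12.7 ± 0.0904 FPKM, with a log2 fold change of -0.26 (adjusted p = 0.422, 0.0411 with the block). Gstp1 was 652 ± 53.7 FPKM on PCL and 561 ± 54.4 on ISB-P, and its log2 differences within replicates were -0.21, -0.20 and -0.26. Its adjusted p of 0.608 in limma became 0.0292 with the block. Gstt1 was 4.26 ± 0.501 and 3.25 ± 0.625 FPKM (log2 fold change -0.31, adjusted p = 0.488, 0.0351 with the block).
The other 5 genes did not pass in either fit. Gstm1, the only one with a higher mean on ISB-P, was 17.8 ± 1.97 FPKM on PCL and 21.3 ± 0.525 on ISB-P and higher within each replicate number (log2 fold change 0.25, adjusted p = 0.547 in limma, 0.0668 with the block). Libraries of the films did not overlap for Gsta5 and Mgst3, with ISB-P below, and for Gstm1, with ISB-P above. Of all tested genes, 9.54% were apart with ISB-P below and 8.17% with ISB-P above. For Gsto1, at 47.9 ± 4.48 and 47.7 ± 6.11 FPKM, the 95% interval of the log2 difference ran from -0.17 to 0.15 with the block and from -0.36 to 0.34 without it. That of Gstk1 ran from -0.24 to 0.17 with the block and from -0.33 to 0.26 without it. For Gstm2 it ran from -0.26 to 0.05 with the block and from -0.40 to 0.19 without, and for Mgst1 from -0.38 to 0.05 and from -0.61 to 0.27. Changes within these bounds are not excluded.

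**Figure D4:**
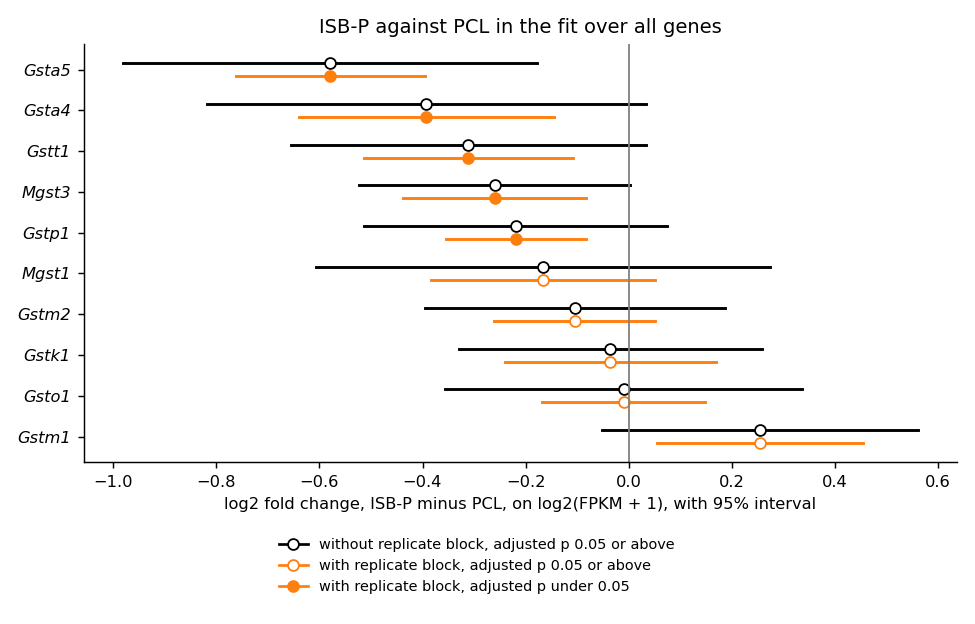
Log2 fold change of ISB-P minus PCL for the 10 genes with its 95% interval, from the fit without the replicate block (black) and with it (orange), filled where the adjusted p was below 0.05. No black point is filled, and the filled orange points are those of Gsta5, Gsta4, Gstt1, Mgst3 and Gstp1, all left of 0.

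Of the 17 other transferase symbols, 9 passed the filter, and the same 9 averaged 1 FPKM or more over the 7 libraries. Hpgds was among the 8 that did not pass. Of the 9, 1 changed with an adjusted p under 0.05, in both fits. Gsta1 was 21.8 FPKM on TCP, with 42.7, 48.2 and 54.5 in the PCL replicates and 172.6, 190.3 and 250.4 in those of ISB-P, rising in the opposite direction to Gsta5. Its means were 48.5 ± 5.91 FPKM on PCL and 204 ± 40.8 on ISB-P, a 4.12-fold increase (log2 fold change 2.04, standard error 0.18, adjusted p = 0.00395 in limma). Without PCL replicate 2 the adjusted p was 0.0581. Gsta2 lay on the side of Gsta5, at 11.9 ± 3.38 and 7.98 ± 1.71 FPKM (log2 fold change -0.51, adjusted p = 0.448, 0.0520 with the block). Mgst2, a membrane-bound enzyme of leukotriene synthesis, was the most abundant of the 9 on TCP and on PCL, with 105.5 FPKM on TCP against 154 ± 33.8 for PCL and 177 ± 54.2 for ISB-P (adjusted p = 0.916), and unlike Mgst1 and Mgst3 it was above TCP in all 6 film libraries. Gstm4 (also an older symbol of Gstm3), Gstm7, Gsto2, Gstt2, Gstz1 (which works in tyrosine breakdown) and Gstcd had log2 fold changes from 0.04 to 0.28, none of them past the threshold in either fit.

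Genes around the transferases in glutathione metabolism were read from lists written with general knowledge of the pathways. Over these lists and the other transferases 7 genes were called higher on ISB-P and 1 lower without the block. Of all tested genes, 1.10% were called higher and 0.623% lower without the block, and 13.0% and 11.4% with it. Of the 7 increases, which include Gsta1 and those of Ggt1, Akr1b10, Akr1b8, Maff and Srxn1 below, none was called without PCL replicate 2. The number called higher was 2 without PCL replicate 1, PCL replicate 3 or ISB-P replicate 2 and 3 without ISB-P replicate 1, and 1 gene was called lower each time. Of 8 tested genes of glutathione synthesis and cystine supply, all 8 were above TCP in all 6 film libraries, against 28.8% of all genes. None changed between ISB-P and PCL at an adjusted p below 0.05, whereas 5 rose and 1 fell with the block, and the median log2 fold change was 0.49. Slc3a2, the heavy chain of the cystine transporter, and Slc1a4, a neutral amino acid carrier, had the highest means in this list, with log2 fold changes of 0.58 and 0.57 (adjusted p = 0.0723 and 0.0995 in limma, 6.51e-04 and 7.23e-04 with the block). Gclc, the catalytic subunit of the rate-limiting step of synthesis and chosen after its values were seen, was 12.8 FPKM on TCP against 109.6 ± 16.2 for PCL and 145 ± 19.4 for ISB-P (log2 fold change 0.40, adjusted p = 0.389, 0.00315 with the block). Gclc was thus higher on ISB-P within the same replicate numbers in which Gsta5, Gsta4 and Gstp1 were lower.
In the glutathione breakdown list, 1 of 10 tested genes rose and 0 fell (3 and 2 with the block, against 13.0% and 11.4% of all tested genes). The gene that rose was Ggt1, the surface enzyme that opens glutathione outside the cell, with 3.46 FPKM on TCP against 13.8 ± 0.591 for PCL and 32.9 ± 2.98 for ISB-P (log2 fold change 1.19, adjusted p = 0.00863 in limma). None of the 13 tested genes of glutathione reduction and peroxidases passed without the block, and 4 rose with it. Gpx8 and Gpx1, its most abundant genes, had log2 fold changes of 0.13 and -0.02 (adjusted p = 0.921 and 0.971). Among 7 tested exporters of glutathione conjugates none passed without the block, and Abcc1, the best known of these pumps, had a log2 fold change of 0.15 (adjusted p = 0.760).
In the list of other aldehyde and epoxide enzymes, 3 of 15 tested genes rose and 1 fell without the block, with a median log2 fold change of 0.02. The 2 largest increases were those of the aldo-keto reductases Akr1b10 and Akr1b8 (log2 fold change 1.15 and 1.14, adjusted p = 0.0310 and 0.00395), and the decrease was that of the aldehyde dehydrogenase Aldh3a1 (-1.94, adjusted p = 0.00131). In the NRF2 list, 16 of 18 tested genes were above TCP in all 6 film libraries, against 28.8% of all genes. None was below in all 6, against 27.2%. Between the films 2 of the 18 rose and 0 fell, against 1.10% and 0.623% of all tested genes. With the block 13 rose and 0 fell, against 13.0% and 11.4%, and the median log2 fold change was 0.41. The 2 called without the block were the small Maf factor Maff and the sulfiredoxin Srxn1, with log2 fold changes of 1.04 and 0.67 (adjusted p = 0.0177 and 0.0287 in limma). These counts share genes, since genes such as Gclc, Gclm and Slc7a11 stand in more than 1 list.

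**Figure D5:**
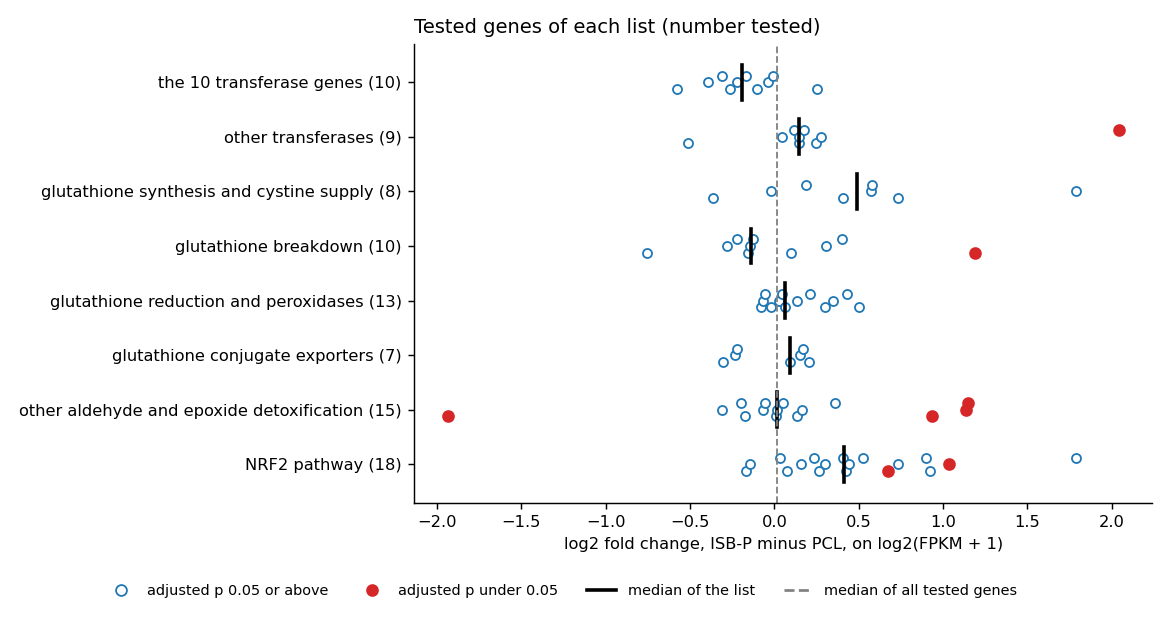
Log2 fold change of ISB-P minus PCL for each tested gene of the lists, with red points for an adjusted p under 0.05 without the replicate block, a black bar at each list's median and a dashed line at the median of all tested genes. The median is -0.19 for the 10 transferase genes and 0.15 for the other transferases. It is -0.14 for glutathione breakdown, 0.49 for glutathione synthesis and 0.41 for the NRF2 list. The remaining lists have medians from 0.02 to 0.09. Gsta1 is the red point at 2.04.

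Among the 5000 other genes that averaged 16 FPKM or more on PCL or on ISB-P, those whose log2(FPKM + 1) correlated best with Gsta5 over the 7 libraries were Kif20a (r = 0.997), Rpa1 and Rfc5 (both 0.995), Aurka (0.994) and Nde1 (0.992). Kif20a was 6.05 FPKM on TCP, with 46.7 to 48.1 in the PCL libraries and 39.0 to 43.4 in the ISB-P libraries. Over the 6 film libraries alone the correlations ranged from 0.759 for Nde1 to 0.975 for Kif20a. The 7 points include the TCP library with Gsta5 at 0, and these genes were picked from all as the highest.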

How the data were processed

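Polyadenylated RNA of rMSCs was sequenced from 7 libraries (1 TCP, 3 PCL, 3 ISB-P), grouped by the sample titles. Each of the 7 deposited tables gives a value for 17147 gene symbols, read here as FPKM because the authors used Cuffdiff. The submitters' processing notes name bcl2fastq 2.20.0.422, cutadapt 1.18, TopHat2 2.0.13, Cuffdiff 2.2.1 and rn5, and the paper names ExDEGA. How fragments shared by similar genes were divided is not given in the sources used here and could shift values between paralogs. Read numbers are unknown. The lowest values share a step ratio in 8.00% to 45.5% of genes per pair of libraries, too blurred for depth, so no counting interval is given, and precision rests on the replicates.

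Genes that reached 1 FPKM in 3 or more of the 6 film libraries (9467) were fitted on log2(FPKM + 1) with limma 3.58.1 (lmFit, eBayes with trend) in R 4.3.3, two-sided, with Benjamini-Hochberg adjustment over all of them. The fit was tested on simulated data with independent noise and planted changes larger than those of the 10 genes. The simulation held no effect shared by replicate number, so it does not bear on calls that depend on the block. TCP, with 1 library, was compared without a test. Replicate numbers come from the titles. Deviations of same-numbered PCL and ISB-P libraries from their film means correlated over genes at r = 0.887, 0.431 and 0.867, so the numbers were taken to pair the libraries, and the fit with the replicate number as a block is given where it changes a call. Alternatives were other scalings, filters, a pseudocount of 0.1, no trend, the paper's thresholds and each film replicate left out. The genes and lists were chosen with earlier results of these data known. The text names all 10 members, the other transferases with a mean of at least 1 FPKM over 7 libraries, and of each list the 2 called genes with the largest increase and the 2 with the largest decrease, or the 2 with the highest mean if none was called, and the 5 genes most correlated with Gsta5. Genes outside this rule are marked, and some list results are not reported here. Figures were drawn with matplotlib 3.10.9.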

Additional observations from a re-analysis of the deposited data

How the results depend on the processing

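The 5 decreases with the replicate block were not called in any fit without it, and the cause was not tested. With the block, 1228 genes were called higher and 1079 lower over all genes, 5 of the 10 transferase genes lower, and 26 genes of the lists higher and 5 lower, against 104, 59, 0, 7 and 1 without it. Over all genes, 39 were called lower after upper quartile scaling, 61 higher and 24 lower with at least 5 FPKM required, and 38 lower without a trend. The paper's thresholds are of another kind, a change over 2-fold with a p-value below 0.1 and values over 16. By these, 58 were higher and 7 lower. With each film replicate left out in turn, 13 to 70 genes were called higher and 2 to 30 lower over all genes. Both were fewest without PCL replicate 2. In the lists 0 to 5 were called higher and 1 to 1 lower. Of the 10 transferase genes 0 were called, as in the fit with all film libraries. Each of these fits held 1 library fewer, and the cause of the spread in calls was not tested.
Some log2 fold changes near 0 changed sign. With each film replicate left out they ranged from -0.111 to 0.0642 for Gsto1 (above 0 without PCL replicate 3, ISB-P replicate 1 or ISB-P replicate 2) and from -0.0919 to 0.0224 for Gstk1 (above 0 without PCL replicate 3 or ISB-P replicate 1). They ranged from -0.0571 to 0.312 for Gstcd, -0.0446 to 0.399 for Mgst2 and -0.0507 to 0.133 for Gstz1, all below 0 without PCL replicate 1 or ISB-P replicate 3, and from -4.93e-04 to 0.217 for Gstm7, below 0 without ISB-P replicate 2. Gstz1 was also -0.0623 after scaling to a common total. The other 8 members kept their sign in all 14 alternatives, or 13 for Gstt1, which could not be fitted where at least 5 FPKM was required.
Against TCP, scaling to a common total moved the median log2 ratio of ISB-P over all genes from 0.05 to -0.11, and that of Gstk1 itself to -0.0199. After each of the 3 other scalings 2 genes, Gstm2 and Mgst3, were over 2-fold below TCP on both films in place of 1. Without each film replicate in turn the number was 0 to 1, with 0 without PCL replicate 2, and 1 gene stayed over 2-fold above throughout.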
